A study of Oryza sativa with 12 samples.

Results

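The genes of nitrate reduction, ammonium uptake and glutamine synthesis were followed in the flag leaf and the young panicle of 2 rice lines. The genes are NIA1, AMT1-1, AMT1-2, AMT1-3, GLN1-1, GLN1-2 and GLN2, chosen by name and not by any measured value. A probe set was taken where the single gene that the platform annotation lists for it carries one of these names as its symbol or as a RefSeq synonym. This gave 6 of the 17905 genes that have a probe set of their own, read by 9 of 57381 probe sets. Of the 9, 7 probe sets were bright enough to be tested, and they cover all 6 genes. AMT1-2 and AMT1-3 are both synonyms of a single matched gene, LOC4330008, whose other synonym is OsAMT1;2. It is called AMT1-2 here. A neighbouring gene, which RefSeq lists with the synonym OsAMT1;3, has no probe set of its own in the annotation.

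Nitrate taken up by a plant is reduced to nitrite by nitrate reductase, the enzyme that NIA1 encodes, and nitrite is then reduced to ammonium in the plastid. Ammonium also enters cells through transporters of the AMT1 family, and it is released inside leaf cells by photorespiration. Glutamine synthetase joins ammonium to glutamate. GLN2 encodes the plastid enzyme, which in leaves takes up the ammonium of nitrite reduction and photorespiration, and GLN1-1 and GLN1-2 encode cytosolic enzymes, known in rice for their part in remobilising nitrogen and in primary assimilation.

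Total RNA came from field-grown plants and was hybridised to 12 single-colour Affymetrix rice arrays, 1 for each of 3 biological replicates in 4 groups. The groups were fully emerged young panicles of IL50-7, the same organ of KMR3, flag leaves of IL50-7 and flag leaves of KMR3. IL50-7 is described as an introgression line, that is, one that carries segments of a donor genome, and the series title calls it high yielding. The labels give no donor, plant age or treatment and do not say whether plants were pooled. If the replicates are not separate plants, the p-values measure only the spread between these samples.

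Levels are log2 intensities after quantile normalization, and background is the level of control probe sets for transcripts not added to the samples, log2 4.01. A bulk array cannot tell fewer cells of a type from less RNA per cell. Marker genes followed the organ labels as groups. They were chosen with earlier results of these data known, so this is no independent check of the labels. Flag leaf markers (6 genes) averaged 7.81 to 9.43 on the panicle arrays and 12.54 to 13.01 on the leaf arrays, floral regulators (14 genes) 9.76 to 9.98 on panicle and 3.36 to 4.17 on leaf arrays, and tapetum and pollen genes (5 genes) 7.55 to 10.62 on panicle and 2.04 to 2.98 on leaf arrays. On the panicle arrays 4 or 5 of the 6 flag leaf markers were above background, and on the leaf arrays all 6 were. The flag leaf mean was carried by BURP2 (panicle minus leaf -9.65 in IL50-7 and -9.20 in KMR3), CRSH2 (-8.56 in IL50-7 and -10.29 in KMR3) and FNR1 (-3.88 in IL50-7 and -3.61 in KMR3). The photosynthesis genes RCA (-1.06 in IL50-7 and -1.08 in KMR3), RBCS (-0.79 in IL50-7 and -0.53 in KMR3, not called in either line) and CAB2R (-0.20 in IL50-7, not called, and -0.23 in KMR3) differed far less. The GAPDH 3′ to 5′ signal ratio, a sign of RNA quality, was 7.68 to 23.3 in panicles and 2.54 to 6.32 in leaves, and its part in the organ differences was not tested.

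The line labels of 2 panicle arrays went against the leaves. Of the probe sets that were off in all leaves of one line, on in all leaves of the other and on in some panicles but off in others, 11 were found. The library labelled IL50-7 panicle replicate 2 had the KMR3 leaf state at 11 of 11 of them, and the library labelled KMR3 panicle replicate 3 had the IL50-7 leaf state at 11 of 11. The other 4 panicle arrays had the state of their own line's leaves at 9 to 11 of the 11. Results that use the panicles are therefore also given without these 2 libraries, which leaves 2 panicle arrays for each line. This choice was made after seeing the data.

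The young panicle and the flag leaf differed in most of these genes, and both lines had the same calls. NIA1, AMT1-1 and GLN2 were lower in the panicle, GLN1-2 was higher, and GLN1-1 and AMT1-2 did not pass the test. By limma's moderated test with Benjamini-Hochberg adjustment over all tested probe sets, 1 of the 7 probe sets rose and 4 fell in each line. In IL50-7 22.4 percent of all tested probe sets rose and 23.2 percent fell (45.6 percent called), and in KMR3 22.5 percent rose and 25 percent fell (47.5 percent called), a background against which the 5 of 7 must be read. The panicle and leaf values did not overlap for 5 of the 7 probe sets in each line, against 54 percent of all probe sets in IL50-7 and 59.4 percent in KMR3. The median panicle minus leaf difference over the 6 genes was -0.77 in IL50-7 and -0.68 in KMR3, beside -0.06 in IL50-7 and -0.11 in KMR3 over all tested probe sets.

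**Figure D1:**
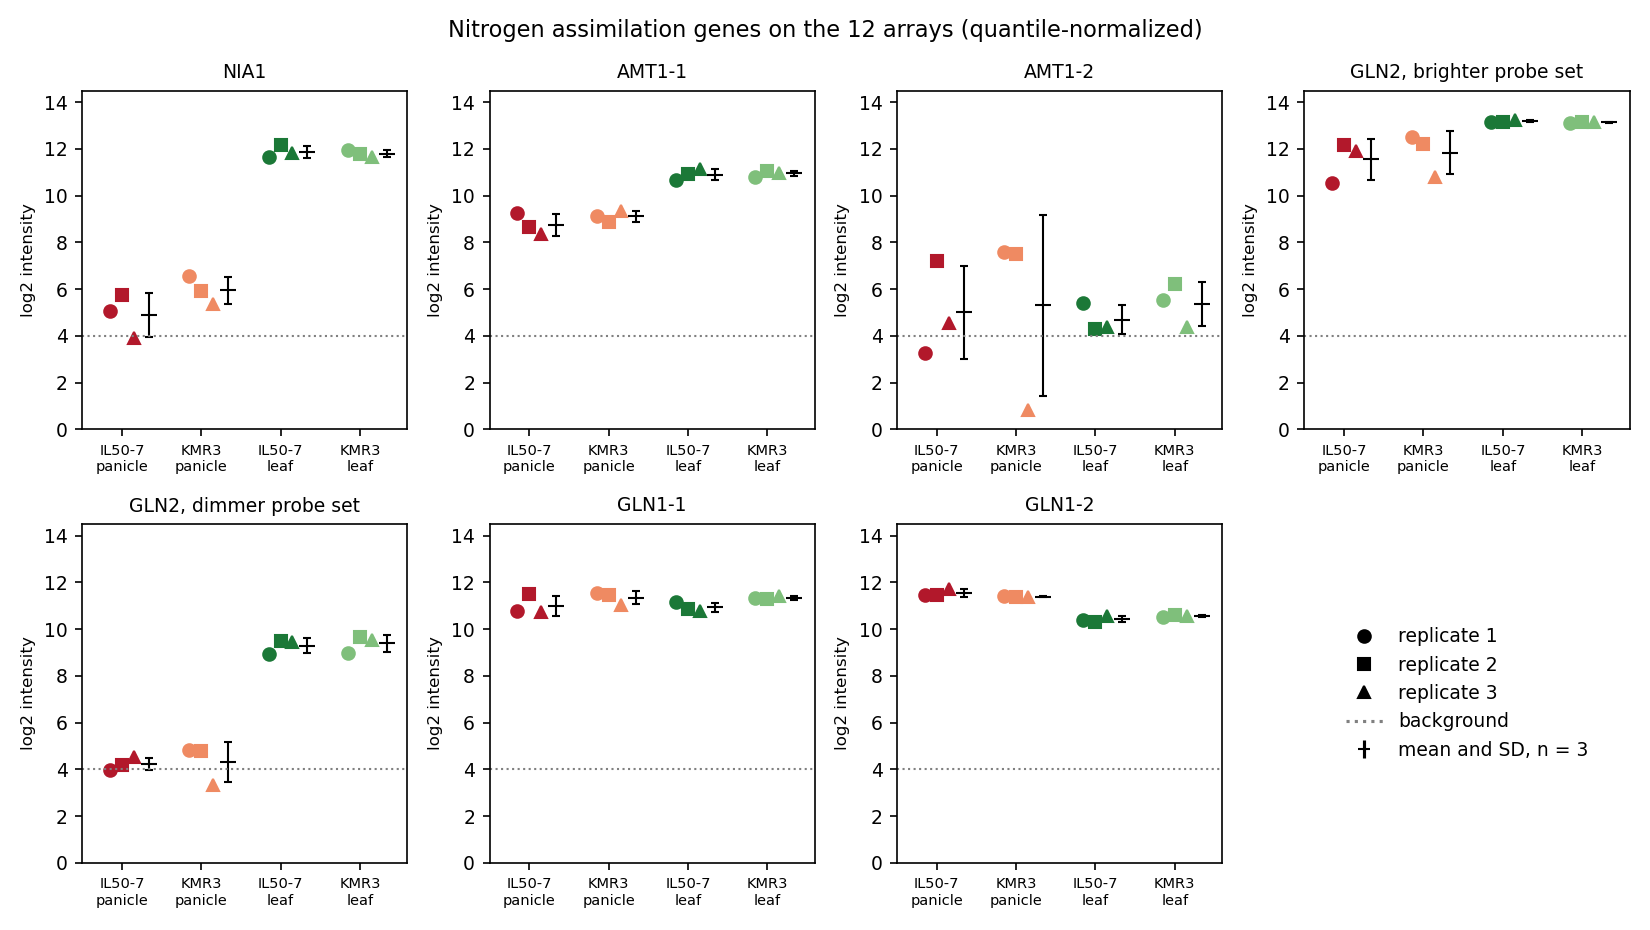
Quantile-normalized log2 intensity of the 7 tested probe sets on the 12 arrays, in panels by gene, with the mean and SD of each group of 3 beside its points and background as a dotted line. NIA1 lies between 3.90 and 6.54 in panicles and between 11.64 and 12.17 in leaves, and the brighter GLN2 probe set has a wide spread in panicles and almost none in leaves.

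NIA1, the nitrate reductase gene, differed most between the organs. The brighter probe set of NIA1 (gene LOC4345795) read 5.05, 5.74 and 3.90 in the 3 IL50-7 panicles and 6.54, 5.92 and 5.37 in the 3 KMR3 panicles. It read 11.64, 12.17 and 11.82 in IL50-7 leaves and 11.94, 11.79 and 11.66 in KMR3 leaves. Every leaf array was thus far above every panicle array, and IL50-7 panicle replicate 3 was below background.

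In IL50-7 the NIA1 panicle minus leaf difference was -6.98 ± 0.41 (log2, SE), about a 126-fold lower level in the panicle (limma adjusted p = 3.6e-07). In KMR3 it was -5.86 ± 0.41, a 57.9-fold lower level (limma adjusted p = 1.24e-06). The IL50-7 fold is approximate, because IL50-7 panicle replicate 3 lay below background. Only 0.108 percent of all tested probe sets had a lower difference in IL50-7, and 0.303 percent in KMR3. Without the 2 libraries whose labels are in doubt the differences were -7.40 ± 0.33 in IL50-7 and -5.57 ± 0.33 in KMR3. A second NIA1 probe set was too dim to be tested, with group means of 2.89 in IL50-7 panicles, 1.74 in KMR3 panicles, 2.70 in IL50-7 leaves and 4.02 in KMR3 leaves. Its values lay below or just above background, from 0.26 in IL50-7 leaf replicate 1 to 4.30 in KMR3 leaf replicate 1. It gives no measure of the organ difference.

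**Figure D2:**
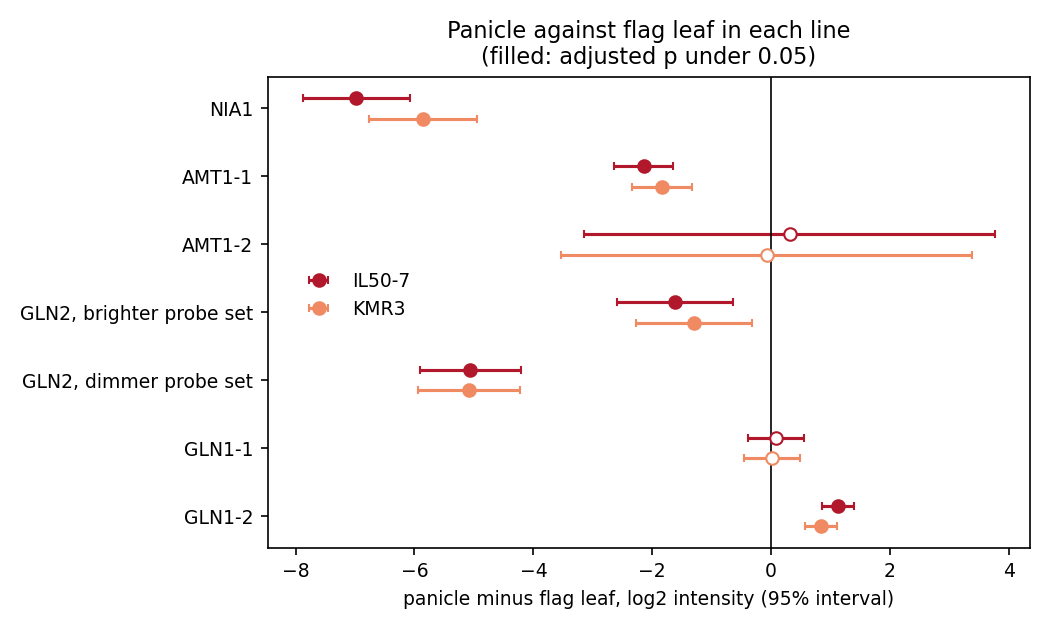
Panicle minus flag leaf difference in log2 intensity for the 7 tested probe sets in IL50-7 and KMR3, with 95% confidence intervals from limma and filled points where the adjusted p was under 0.05. NIA1 (-6.98 in IL50-7 and -5.86 in KMR3) and the dimmer GLN2 probe set (-5.06 and -5.08) lie farthest to the left, and GLN1-2 (1.12 and 0.84) is the only member to the right with a call.

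AMT1-1 (LOC4336365), an ammonium transporter known in rice to be expressed in both shoots and roots, was also lower in the panicle but by far less. Its brighter probe set read 9.25, 8.66 and 8.35 in IL50-7 panicles and 9.14, 8.86 and 9.34 in KMR3 panicles, against 10.65, 10.91 and 11.12 in IL50-7 leaves and 10.82, 11.04 and 10.98 in KMR3 leaves. All 6 panicle values lay below all 6 leaf values. The difference was -2.14 ± 0.23 in IL50-7 (4.41-fold lower, limma adjusted p = 2.1e-05) and -1.83 ± 0.23 in KMR3 (3.57-fold lower, limma adjusted p = 6.52e-05). Without the 2 doubted libraries, where 39.9 percent of all tested probe sets were called in IL50-7 and 41.5 percent in KMR3, AMT1-1 differed by -2.09 in IL50-7 and -1.95 in KMR3. Its second probe set was not tested, since its mean was 0.63 in IL50-7 panicles, 0.55 in KMR3 panicles, 3.27 in IL50-7 leaves and 3.12 in KMR3 leaves, all under background.

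AMT1-2 (LOC4330008), a transporter described in rice mainly from roots, varied more between panicle arrays than any other tested member. It read 3.28, 7.19 and 4.53 in IL50-7 panicles and 7.60, 7.49 and 0.81 in KMR3 panicles. In leaves it read 5.41, 4.29 and 4.36 in IL50-7 and 5.54, 6.21 and 4.36 in KMR3. The panicle values thus fell into 3 above 7 and 3 below 5, while all 6 leaf values lay above background. Both kinds occurred in each line as labelled, but only through the 2 libraries whose labels are in doubt. IL50-7 replicate 2 (7.19) was with the high values of KMR3, and KMR3 replicate 3 (0.81) was with the low values of IL50-7.

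The AMT1-2 panicle minus leaf difference was 0.31 ± 1.57 in IL50-7 (limma adjusted p = 0.892) and -0.07 ± 1.57 in KMR3 (95% interval -3.53 to 3.39, limma adjusted p = 0.974), and so wide an interval does not show that the organs are alike. KMR3 panicle replicate 3 decided the KMR3 value. Without it the difference was 2.18 (limma adjusted p = 0.0898). Without both doubted libraries the difference was -0.78 ± 0.61 in IL50-7 (limma adjusted p = 0.342) and 2.18 ± 0.61 in KMR3 (limma adjusted p = 0.0175). KMR3 panicle replicate 3 had the lowest AMT1-2 level of the panicles. The smaller SE and p-value in KMR3 thus follow in part from leaving it out.

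GLN2 (LOC4337272), the plastid glutamine synthetase, was lower in the panicle by both of its probe sets, but the probe sets did not agree on the size. The brighter one read 10.56, 12.19 and 11.93 in IL50-7 panicles and 12.51, 12.23 and 10.80 in KMR3 panicles, against 13.17, 13.14 and 13.22 in IL50-7 leaves and 13.13, 13.16 and 13.14 in KMR3 leaves. The 6 leaf values were nearly identical and lay among the brightest of the array, above 99.6 percent of tested probe sets, whereas the panicles ranged widely.

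The brighter GLN2 probe set differed by -1.62 ± 0.45 in IL50-7 (3.07-fold lower, limma adjusted p = 0.0115) and by -1.30 ± 0.45 in KMR3 (2.46-fold lower, limma adjusted p = 0.0323). The SD of its leaf groups was 0.04 in IL50-7 and 0.02 in KMR3, against 0.31 in IL50-7 and 0.37 in KMR3 for the dimmer probe set. Whether the leaf signal was near saturation was not tested, so the folds of the brighter probe set are approximate. The IL50-7 call was made under all 22 alternatives, with differences of -1.93 to -1.12. The KMR3 call was made under 14 of 22. It was lost on the deposited scale (limma adjusted p = 0.056), with equal array medians, without the filter on dim probe sets and without KMR3 panicle replicate 3, where GLN2 differed by -0.77 (limma adjusted p = 0.116). Leaving out any 1 of the 3 KMR3 leaf arrays also lost it, with adjusted p between 0.0701 and 0.0736. Without the 2 doubted libraries GLN2 differed by -1.93 ± 0.31 in IL50-7 (limma adjusted p = 0.000918) and by -0.77 ± 0.31 in KMR3 (limma adjusted p = 0.0719).

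The dimmer GLN2 probe set read 3.97, 4.19 and 4.52 in IL50-7 panicles and 4.82, 4.78 and 3.31 in KMR3 panicles. It read 8.92, 9.50 and 9.44 in IL50-7 leaves and 8.96, 9.65 and 9.55 in KMR3 leaves. In panicles it was thus close to background, with 2 of 3 arrays above it in each line. The difference was -5.06 ± 0.39 in IL50-7 (about 33.4-fold lower, limma adjusted p = 2.12e-06) and -5.08 ± 0.39 in KMR3 (about 33.9-fold lower, limma adjusted p = 2.25e-06). Because the panicle means, 4.23 in IL50-7 and 4.31 in KMR3, lay just above background, with 1 array of each group below it, these folds are approximate. Without the 2 doubted libraries the dimmer GLN2 probe set differed by -5.04 in IL50-7 and -4.59 in KMR3.

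GLN1-2 (LOC4332108), a cytosolic glutamine synthetase, was the member that rose in the panicle. It read 11.45, 11.46 and 11.73 in IL50-7 panicles and 11.44, 11.38 and 11.37 in KMR3 panicles, against 10.41, 10.29 and 10.58 in IL50-7 leaves and 10.52, 10.59 and 10.56 in KMR3 leaves. Every panicle array was above every leaf array, and the spread within a group was small. GLN1-2 was 2.18-fold higher in IL50-7 panicles than in IL50-7 leaves (1.12 ± 0.12, limma adjusted p = 2.64e-05) and 1.79-fold higher in KMR3 panicles than in KMR3 leaves (0.84 ± 0.12, limma adjusted p = 0.000216). Without the 2 doubted libraries GLN1-2 differed by 1.17 in IL50-7 and 0.85 in KMR3.

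GLN1-1 (LOC4330649), the other cytosolic glutamine synthetase here, did not differ detectably between the organs. It read 10.79, 11.50 and 10.73 in IL50-7 panicles and 11.56, 11.48 and 11.02 in KMR3 panicles, against 11.16, 10.86 and 10.76 in IL50-7 leaves and 11.32, 11.27 and 11.41 in KMR3 leaves. The panicle and leaf ranges overlapped in both lines. The difference was 0.08 ± 0.22 in IL50-7 (95% interval -0.40 to 0.56, limma adjusted p = 0.792) and 0.02 ± 0.22 in KMR3 (95% interval -0.46 to 0.49, limma adjusted p = 0.953), so a change of more than about 0.56 either way lies outside both intervals. Without the 2 doubted libraries GLN1-1 differed by -0.17 in IL50-7 and 0.18 in KMR3.

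NIA1 averaged 4.90 ± 0.93 in IL50-7 panicles, 5.94 ± 0.58 in KMR3 panicles, 11.88 ± 0.27 in IL50-7 leaves and 11.80 ± 0.14 in KMR3 leaves (SD, n = 3 each). AMT1-1 averaged 8.75 ± 0.46 in IL50-7 panicles, 9.11 ± 0.24 in KMR3 panicles, 10.89 ± 0.24 in IL50-7 leaves and 10.95 ± 0.12 in KMR3 leaves. The brighter GLN2 probe set averaged 11.56 ± 0.87 in IL50-7 panicles, 11.85 ± 0.92 in KMR3 panicles, 13.18 ± 0.04 in IL50-7 leaves and 13.14 ± 0.02 in KMR3 leaves. All 3 genes thus ran from IL50-7 panicles, the lowest group, through KMR3 panicles to the leaves. GLN1-2 ran the other way, with 11.55 ± 0.16 in IL50-7 panicles, 11.39 ± 0.04 in KMR3 panicles, 10.43 ± 0.14 in IL50-7 leaves and 10.56 ± 0.03 in KMR3 leaves. In these 4 genes neighbours of the same organ did not differ by the adjusted test. GLN1-1 averaged 11.01 ± 0.43 in IL50-7 panicles, 11.35 ± 0.29 in KMR3 panicles, 10.93 ± 0.21 in IL50-7 leaves and 11.34 ± 0.07 in KMR3 leaves, and the group means of AMT1-2 ran from 4.69 to 5.37. For these 2 genes none of the organ or line contrasts passed the test, and other pairs of groups were not tested.

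Most members varied more among the panicle arrays than among the leaf arrays. The SD of the brighter GLN2 probe set was 0.82 over the 6 panicles and 0.03 over the 6 leaves, and that of the dimmer one was 0.57 in panicles and 0.31 in leaves. For AMT1-2 it was 2.77 in panicles and 0.81 in leaves, and for NIA1 0.90 in panicles and 0.20 in leaves. GLN1-2 had 0.13 in panicles and 0.12 in leaves, and GLN1-1 had 0.38 in panicles and 0.26 in leaves. The median SD over all tested probe sets was 0.40 in panicles and 0.43 in leaves. GLN2 and AMT1-2 were both lowest in IL50-7 panicle replicate 1 and KMR3 panicle replicate 3. Both of these arrays had the IL50-7 leaf state at 11 of 11 probe sets. IL50-7 panicle replicate 3, with the same state, read 11.93 for the brighter GLN2 probe set and 4.53 for AMT1-2. KMR3 panicle replicates 1 and 2 and IL50-7 panicle replicate 2 were highest for NIA1, AMT1-2, GLN1-1 and the brighter GLN2 probe set. They had the KMR3 leaf state at 9 to 11 of the 11. The same did not hold for AMT1-1, GLN1-2 or the dimmer GLN2 probe set. The actin 3′ to 5′ signal ratio split the panicles in the same way. It was 13.4 and 11.7 in KMR3 replicates 1 and 2 and 12.7 in IL50-7 replicate 2, against 4.95 to 9.50 on the others. The GAPDH ratio did not, with 17.6 in KMR3 replicate 3 and 16.0 in KMR3 replicate 2. The part of leaf state or RNA quality in this split was not tested.

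IL50-7 panicle replicate 1 and KMR3 panicle replicate 3 were each other's closest array (Pearson r = 0.967 over all tested probe sets). They had the lowest mean flag leaf marker level of the panicles, 8.23 in IL50-7 replicate 1 and 7.81 in KMR3 replicate 3, against 8.80 to 9.43 on the other 4. They also had the highest mean of the tapetum and pollen genes, 10.59 in IL50-7 replicate 1 and 10.62 in KMR3 replicate 3, against 7.55 to 9.63 on the other 4. The part of these values, or of the leaf state given above, in the panicle levels of GLN2 and AMT1-2 was not tested. With both arrays left out, a choice made after seeing the data, 42.5 percent of all probe sets were called in IL50-7 and 44.4 percent in KMR3. The brighter GLN2 probe set then differed between panicle and leaf by -1.12 ± 0.12 in IL50-7 (limma adjusted p = 4.85e-05) and by -0.77 ± 0.12 in KMR3 (limma adjusted p = 0.000542). The arrays left out had the lowest GLN2 values of the panicles, 10.56 in IL50-7 replicate 1 and 10.80 in KMR3 replicate 3. The smaller SE and p-values thus follow from the choice and add no evidence for the GLN2 difference.

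**Figure D3:**
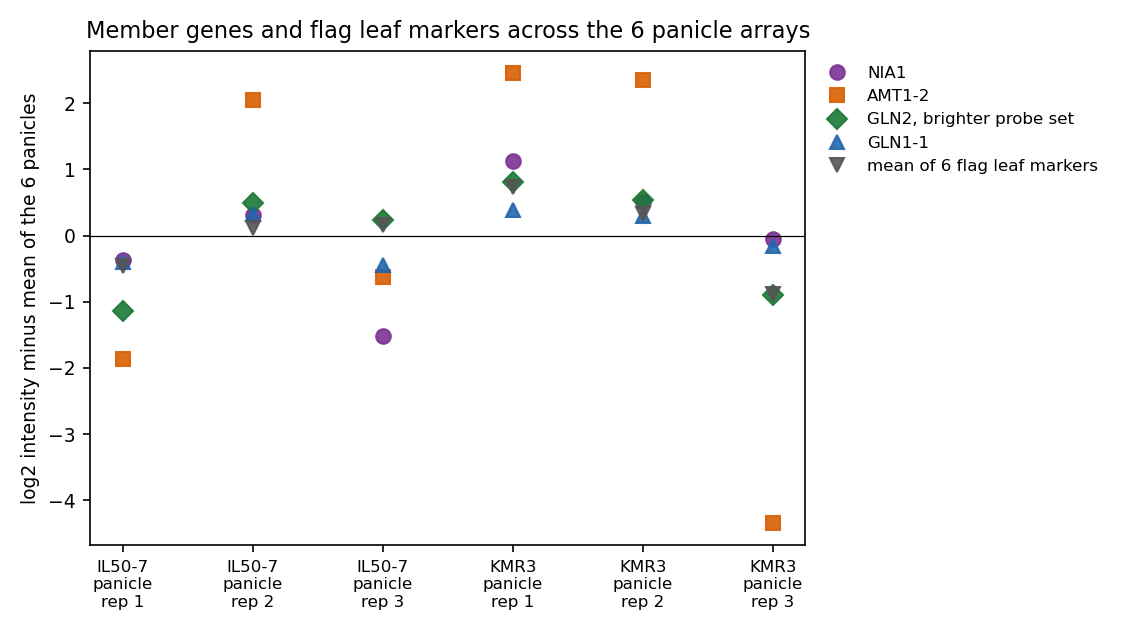
Log2 intensity of NIA1, AMT1-2, GLN2 (brighter probe set) and GLN1-1, and the mean of 6 flag leaf markers, on each panicle array, as the difference from that gene's mean over the 6 panicles. GLN2 and the leaf markers are lowest in IL50-7 replicate 1 and KMR3 replicate 3, and AMT1-2 (levels 3.28 and 0.81 there) moves most.

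Between the lines no member passed the adjusted test, in either organ or in the interaction. In leaves 0 of 7 probe sets were called, where 0.0729 percent of all tested probe sets were, and 0 of 7 had an unadjusted limma p under 0.05 (4.85 percent of all). In panicles 0 of 7 were called, where 0 percent of all were, and 1 of 7, NIA1, had an unadjusted p under 0.05 (3.29 percent of all). In the interaction, which asks whether the line difference depends on the organ, 0 of 7 were called, against 0.0291 percent of all, and 0 of 7 had an unadjusted p under 0.05 (3.91 percent of all).

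In flag leaves the line differences were small for most members. IL50-7 minus KMR3 was 0.08 (95% interval -0.83 to 0.98) for NIA1, -0.06 (-0.55 to 0.44) for AMT1-1 and 0.04 ± 0.45 for the brighter GLN2 probe set. The sign of the first 2 changed when 1 array was left out. For GLN1-2 it was -0.13 ± 0.12 and for AMT1-2 -0.68 ± 1.57. Each SE and interval here rests on 1 variance for all 4 groups, panicles included. For AMT1-2 the SD was 2.77 over the 6 panicles and 0.81 over the 6 leaves. For the brighter GLN2 probe set it was 0.82 in panicles and 0.03 in leaves, and for NIA1 0.90 in panicles and 0.20 in leaves. The widths given for these genes thus largely reflect panicle spread and are no measure of the leaf uncertainty alone.

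GLN1-1 was the member whose leaf values did not overlap between the lines, with 10.76 to 11.16 in IL50-7 and 11.27 to 11.41 in KMR3, as held for 9.17 percent of all tested probe sets. Its difference was -0.41 ± 0.22 (95% interval -0.88 to 0.07, limma adjusted p = 1). In panicles the GLN1-1 ranges overlapped through the 2 doubted libraries, IL50-7 replicate 2 (11.50) and KMR3 replicate 3 (11.02). The other panicles read 10.79 and 10.73 in IL50-7 and 11.56 and 11.48 in KMR3. With all 3 arrays a line, GLN1-1 averaged 11.01 ± 0.43 in IL50-7 panicles and 11.35 ± 0.29 in KMR3 panicles (SD, n = 3 each). That difference was -0.35 ± 0.22 (limma adjusted p = 1).

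In panicles NIA1 differed by -1.05 ± 0.41 between IL50-7 and KMR3 (95% interval -1.95 to -0.15, limma adjusted p = 1), and the line by organ interaction was -1.12 ± 0.58. The NIA1 values of the lines overlapped, because IL50-7 replicate 2 (5.74) was above KMR3 replicate 3 (5.37), the 2 libraries whose labels are in doubt. AMT1-1 differed by -0.36 (95% interval -0.86 to 0.14) and the brighter GLN2 probe set by -0.29 ± 0.45. GLN1-2 values did not overlap, with 11.45 to 11.73 in IL50-7 and 11.37 to 11.44 in KMR3, as held for 9.22 percent of all tested probe sets, but its difference of 0.16 (95% interval -0.11 to 0.43) became -0.17 both on the deposited scale and when array medians were made equal.

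Leaving out the 2 doubted libraries raised the number of probe sets called between the panicles of the lines to 125 (0.364 percent of all tested). The members stayed outside that number, but several were farther apart. AMT1-2 (LOC4330008) differed by -3.64 ± 0.67 (limma adjusted p = 0.0688), NIA1 by -1.76 ± 0.37 (limma adjusted p = 0.108), GLN1-1 by -0.76 ± 0.16 (limma adjusted p = 0.121) and the brighter GLN2 probe set by -1.12 ± 0.34 (limma adjusted p = 0.308). All 4 were lower in IL50-7, while AMT1-1 (-0.20) and GLN1-2 (0.19) moved little. With 2 arrays a line, 1 of them IL50-7 replicate 1 with its low GLN2 and AMT1-2, these values rest on few measurements. The libraries left out were picked for having the other line's leaf state. Larger line differences and more calls thus follow in part from the choice and are no independent evidence of a line difference. In this comparison the GAPDH 3′ to 5′ ratio was 8.72 and 7.68 in the IL50-7 panicles and 23.3 and 16.0 in the KMR3 panicles, and the actin ratio 6.23 and 4.95 in IL50-7 and 13.4 and 11.7 in KMR3. These ratios separated the lines completely, and their part in the line differences was not tested. With KMR3 replicate 3 and IL50-7 replicate 1 left out instead, 0.00291 percent of probe sets were called, AMT1-2 differed by -1.69, NIA1 by -1.41, GLN1-1 by -0.40 and GLN2 by -0.31 (limma adjusted p = 1 for each).

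**Figure D4:**
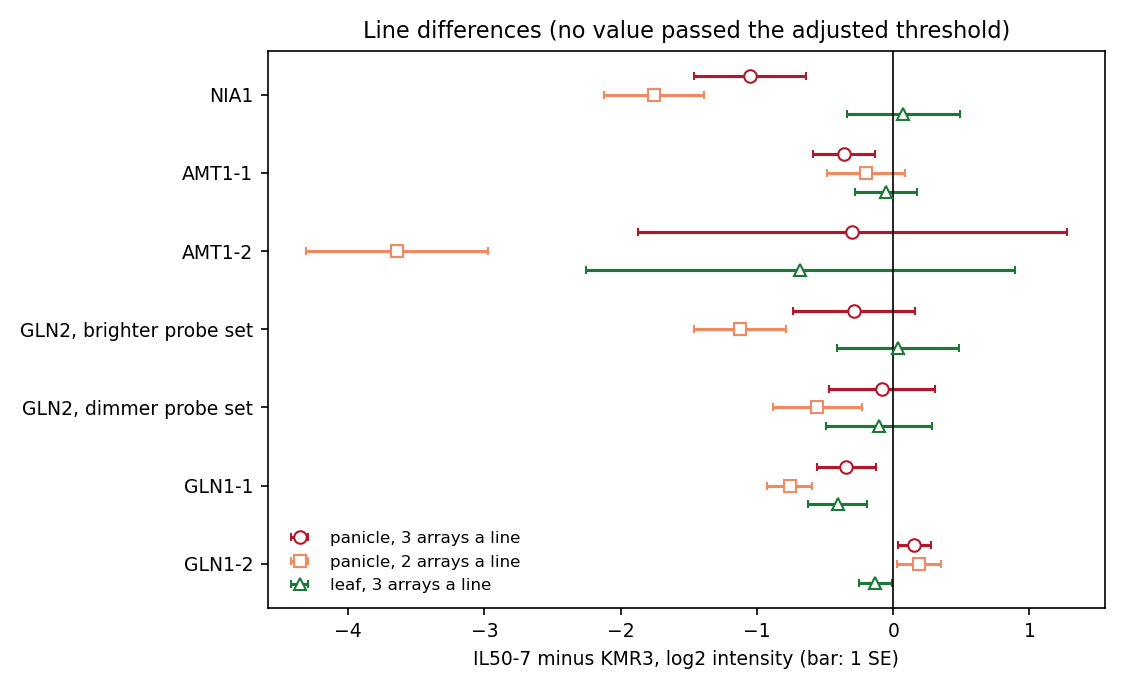
IL50-7 minus KMR3 difference in log2 intensity with its standard error for the 7 tested probe sets, in panicles with all 3 arrays a line, in panicles with 2 arrays a line (without IL50-7 replicate 2 and KMR3 replicate 3) and in leaves. Every point is open because none passed the adjusted threshold, and AMT1-2 moves from -0.30 to -3.64 when the 2 libraries are left out.

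Other genes of nitrogen transport, assimilation and regulation were read from a list of 91 names, of which 25 had a probe set. Names that belonged to 2 unrelated genes were set aside, which left 21 genes, each described by its brightest tested probe set. In IL50-7 6 rose in the panicle, 8 fell and 7 were not called, and in KMR3 7 rose, 7 fell and 7 were not called, against 45.6 percent of all probe sets called in IL50-7 and 47.5 percent in KMR3. Their median difference was 0.04 in IL50-7 and -0.48 in KMR3. On the deposited scale, which raised the median of all probe sets by over 0.1 in both lines (to 0.15 in IL50-7 and 0.31 in KMR3), 5 fell in IL50-7 and 4 in KMR3. In IL50-7 5 also fell with equal array medians, without IL50-7 leaf replicate 2 and without the 2 doubted libraries.

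GLN1-3, the third cytosolic glutamine synthetase, described in rice as the form of the spikelet, was the gene of the list with the largest rise. It averaged 8.91 in IL50-7 panicles and 3.76, below background, in IL50-7 leaves (5.15 ± 0.46, limma adjusted p = 6.34e-06), and it was 18.2-fold higher in KMR3 panicles than in KMR3 leaves (4.19 ± 0.46, limma adjusted p = 2.89e-05). NRT2.3, a high-affinity nitrate transporter, was 4.48-fold higher in IL50-7 panicles (2.16 ± 0.50, limma adjusted p = 0.00432) and 10.6-fold higher in KMR3 panicles (3.41 ± 0.50, limma adjusted p = 0.000214), by a probe set marked as able to bind related transcripts. NAR2.2, a partner protein of such transporters, was at least 2.83-fold higher in IL50-7 panicles (limma adjusted p = 0.0146). In KMR3 NAR2.2 averaged 5.37 in panicles and 3.09 in leaves, which did not pass (limma adjusted p = 0.102). GRF4, a transcription factor known to promote nitrogen assimilation, rose in KMR3, with 6.08 in panicles and 3.49 in leaves (limma adjusted p = 0.0107). In IL50-7 GRF4 averaged 5.59 in panicles and 4.06 in leaves, which did not pass (limma adjusted p = 0.0997), and the difference between the lines in these changes was not called.

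Among the transporters that fell, AMT3-2 was 4.44-fold lower in IL50-7 panicles (limma adjusted p = 0.000793) and 4.14-fold lower in KMR3 panicles (limma adjusted p = 0.00109), again by a probe set that may bind related transcripts. AMT3-3 averaged 2.51, under background, in IL50-7 panicles and 5.16 in IL50-7 leaves (limma adjusted p = 0.0117), a call that was lost without the 2 doubted libraries (limma adjusted p = 0.0556). In KMR3 AMT3-3 averaged 4.01 in panicles and 4.96 in leaves, which did not pass (limma adjusted p = 0.31).

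Further genes were picked out after their values had been seen. Fd-GOGAT, the ferredoxin-dependent glutamate synthase that works beside GLN2 in the leaf plastid, fell in both lines by all 3 of its probe sets. The probe sets did not agree on the size. The brightest differed by -1.95 ± 0.25 in IL50-7 and -1.75 ± 0.25 in KMR3 (FD-GOGAT/GLU, limma adjusted p = 8.74e-05 in IL50-7 and 0.000195 in KMR3). The other 2 differed by -3.32 and -3.70 in IL50-7 and by -3.10 and -3.18 in KMR3. The brightest averaged 13.05 in IL50-7 leaves and 13.03 in KMR3 leaves, and whether that signal was near saturation was not tested. GDH1 and GDH2, glutamate dehydrogenases, were higher in the panicle by 1.38 and 1.94 in IL50-7 and by 1.49 and 1.91 in KMR3, while the 2 dimmer GDH2 probe sets were not called in either line. ARG1, arginase, which releases the nitrogen of arginine, was higher by 1.66 in IL50-7 and 1.75 in KMR3. NLP1 and NLP3, of the family of nitrate-responsive transcription factors, differed by -1.97 and -1.27 in IL50-7 and by -1.96 and -1.33 in KMR3. GLB, the PII signalling protein, differed by -0.58 in IL50-7 and -0.80 in KMR3. The ammonium transporter gene AMT2-1 was also called lower in both lines, by -0.76 in IL50-7 and -1.38 in KMR3. So was GLT2, another glutamate synthase gene, by -0.99 in IL50-7 and -1.33 in KMR3.

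**Figure D5:**
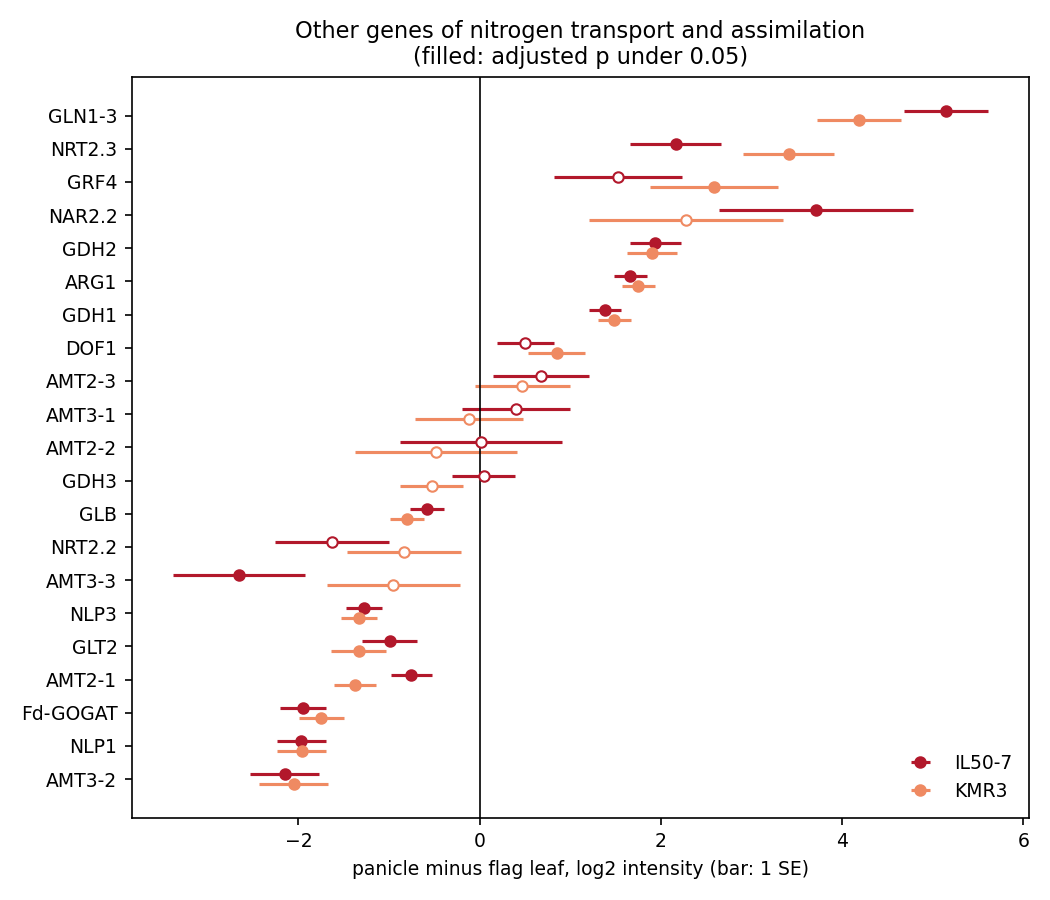
Panicle minus flag leaf difference in log2 intensity with its standard error for 21 other genes of nitrogen transport, assimilation and regulation, in IL50-7 and KMR3, filled where the adjusted p was under 0.05. GLN1-3 is farthest to the right (5.15 in IL50-7 and 4.19 in KMR3).

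Between the lines 0 of these 21 genes were called in leaves, in panicles or in the interaction. In leaves 1 of the 21 had an unadjusted limma p under 0.05, AMT2-1, an ammonium transporter (-0.59 ± 0.23, limma adjusted p = 0.905), and GLT2, a glutamate synthase gene, came next (-0.41 ± 0.30, limma adjusted p = 1). In panicles 0 of the 21 had one. The smallest p there were those of NRT2.3, which averaged 6.91 in IL50-7 and 7.95 in KMR3 (95% interval of the difference -2.14 to 0.05), and AMT3-3, whose means of 2.51 in IL50-7 and 4.01 in KMR3 were not above background. AMT2-1 (0.62 ± 0.32) and NRT2.3 (-1.25 ± 0.71) had the smallest p in the interaction, with an adjusted limma p of 1 for both.

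For each member, the named genes of most similar pattern were sought among 2338 by Pearson correlation over the 12 arrays, which share the organ difference. NIA1 was closest to CIPK1, a protein kinase (r = 0.997), and to GLK2, a regulator of chloroplast development (r = 0.995). GLN2 was closest to PRXIIE-2, a peroxiredoxin (r = 0.995), APX8, an ascorbate peroxidase (r = 0.991), and ISP, the Rieske protein of photosynthetic electron transport (r = 0.991). After the group means were removed, the correlations of GLN2 with these 3 were 0.993, 0.982 and 0.987, and those of NIA1 were 0.968 with CIPK1 and 0.779 with GLK2.

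AMT1-1 was closest to PPT3 (r = 0.991) and GLN1-2 to OsPP2C47 and to MADS15, a floral regulator (r = 0.988 each). After the group means were removed these were 0.947 for PPT3, 0.639 for OsPP2C47 and 0.740 for MADS15. GLN1-1, whose organs differed little, had no pattern as close, with BRXL2 first (r = 0.889, and 0.934 after the group means were removed). AMT1-2 was closest to PETE, plastocyanin, a carrier of photosynthetic electrons (r = 0.889, and 0.915 after the group means were removed), and to Lsi1, a silicon transporter (r = 0.870, and 0.909 likewise). These correlations describe the arrays and carry no test.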

How the data were processed

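Each of the 12 arrays has 57381 probe sets, and the authors deposited 1 linear intensity value per probe set. Version 1.2 of GCOS is named in the submitters' processing notes, with no role. The sources used here do not state the scaling or the background correction. Deposited trimmed means ranged 2.38-fold (125 to 296). Intensities were log2 transformed, quantile normalized and given a floor of log2 0.26, the 10th percentile. Then 187 control probe sets were removed, and the 34316 probe sets with a mean above the 40th percentile were kept. Background (log2 4.01, intensity 16.1) is the 95th percentile of 23 controls whose transcripts were not added. A fold is a lower bound where all dimmer arrays lay below it. No 2 arrays held identical values.

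Differences were tested with limma 3.58.1 (R 4.3.3), with a variance trend, in 1 model of 4 group means (8 residual degrees of freedom), with Benjamini-Hochberg adjustment at 0.05 over all tested probe sets; other steps used Python 3.11.15. The procedure was tested on simulated data. RefSeq names (ASM3414082v1) served for naming only. No sequences are shown.

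The wider list and the marker genes were chosen with earlier results of these data known, and the members by name. Every matched probe set was named. A gene was described by its brightest tested probe set. From the wider list came up to 4 called genes of largest difference per organ comparison, otherwise the 2 of smallest p. For likeness up to 3 of the closest genes were named for each member. The number of arrays limits precision.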

Additional observations from a re-analysis of the deposited data

How the results depend on the processing

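Under the alternatives 5 of 7 member probe sets were called in the IL50-7 organ comparison and 4 to 6 in the KMR3 organ comparison. In the line comparisons and the interaction 0 were called. The KMR3 calls were not all the same: the brighter GLN2 probe set was called under 14 of 22 alternatives. AMT1-2, not called in the values reported first, was called there under 2 of 22. The labels' replicate numbers did not pair the arrays: deviations of same-numbered arrays from their group means correlated at -0.33 to 0.40, with 4 of 18 above 0.1. With the replicate number as a block the counts of calls were 5, 5, 0, 0 and 0. Direction changed only in differences that missed the threshold in the values reported first, and the cause was not tested. For AMT1-2, the KMR3 organ difference (-0.07) became 0.37 on the deposited scale, 0.20 after equal array medians were set, 0.34 with a floor at the 25th percentile and 1.60 with array weights. Its interaction (0.38) became -0.028 with that floor and -0.29 with array weights. For GLN1-1, the interaction became -0.25 on the deposited scale and -0.24 with equal medians. For GLN1-2, the panicle line difference became -0.17 under both of these scalings, and its interaction -0.068 and -0.057. For the dimmer GLN2 probe set, the leaf line difference became 0.012 with array weights, and its interaction -0.069 and -0.058 under the scalings and -0.41 with array weights. With 1 array left out, or KMR3 panicle replicate 3 together with IL50-7 panicle replicate 2 or 1, ranges that crossed 0 were, in the organ comparisons, -0.17 to 0.22 (IL50-7) and -0.087 to 0.18 (KMR3) for GLN1-1 and -0.78 to 1.17 (IL50-7) and -1.22 to 2.18 (KMR3) for AMT1-2. In leaves between lines they were -0.17 to 0.066 for AMT1-1, -0.071 to 0.19 for NIA1 and -0.32 to 0.078 for the dimmer GLN2 probe set. In panicles between lines they were -1.12 to 0.21 for the brighter and -0.58 to 0.18 for the dimmer GLN2 probe set and -3.64 to 0.85 for AMT1-2. In the interaction they were -1.16 to 0.18 and -0.47 to 0.28 for the GLN2 probe sets, -0.35 to 0.20 for GLN1-1 and -2.96 to 1.53 for AMT1-2.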
